A study of Mus musculus with 13 samples.

Results

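The genes described here belong to 11 families of neuronal adhesion and axon guidance proteins, read by AGO CLIP in mouse cortex. AGO CLIP crosslinks Argonaute (AGO), the protein that carries microRNAs (miRNAs), to its bound RNA with ultraviolet light and sequences the bound fragments, called tags here. A gene was a member when its name in the peak table began with Pcdh, Cdh and a digit, Sema, Plxn, Epha, Ephb, Efna, Efnb, Nrxn, Nlgn or Lrrtm. One symbol of the Pcdha cluster was left out. This gave 58 genes of the 4652 gene names in the table. Of these, 44 had at least 1 exonic peak, meaning a peak that the authors labelled as untranslated region (UTR) or coding sequence (CDS), and 14 had only peaks outside exons. No Efnb gene had a peak.

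The libraries were made from cortex of wild-type C57BL6 mice aged 7 to 8 weeks. The 5 ipsilateral libraries came from the hemisphere in which the middle cerebral artery had been closed with a suture, with the common carotid artery tied, for 35 min (MCAO), taken after 3 h of recovery. The 4 contralateral libraries came from the opposite hemisphere of operated mice at the same time. The 4 sham libraries came from mice whose arteries were exposed for as long but with no suture inserted; which of their hemispheres was used was not worked out here. All mice were anesthetized with isoflurane. A replicate number marks 1 day of surgery and runs across the groups (ipsilateral 1 to 5, contralateral 1, 2, 4 and 5, sham 1, 2, 3 and 5). The labels state neither how many mice stand behind a library nor their sex, so p-values measure the spread between these libraries.

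Neurexins (Nrxn) sit on the axon side of a synapse and bind neuroligins (Nlgn) and LRRTM proteins on the dendrite side, and the pairs organize the contact. Cadherins (Cdh) and protocadherins (Pcdh) join cells that carry like molecules, and clustered protocadherins also form a surface code that lets a neuron tell its own branches from others. Semaphorins (Sema) signal through plexins (Plxn), and ephrins (Efna, Efnb) through Eph receptors (Epha, Ephb), to steer growing axons, and in the adult cortex both systems also act at synapses. An miRNA guides AGO mainly through its seed, positions 2 to 8 from its 5′ end, which pairs with a site that is often in the 3'UTR of the target.

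The family genes held 256 peaks with 5065 tags, of which 129 exonic peaks held 2639 tags. That was 1.33% of the 198038 exonic tags of all genes. Of the exonic peaks, 91 were labelled 3'UTR alone, 30 CDS alone and 4 5'UTR alone. The other 127 peaks held 2426 tags, 47.9% of the family's tags, against 38.6% over all tags that the table gives to a gene. They carry no UTR or CDS label and are called peaks outside exons here. Of them 125 were labelled intron alone, and a Nrxn3 peak with 16 tags was labelled an unclassified exon. The median family gene with an exonic peak had 20.5 exonic tags over all 13 libraries, against 19.0 over all 3365 genes with exonic tags. Counts of this size limit what any comparison of 1 gene can show. An AGO tag count follows both the amount of an RNA and how much of it AGO holds, and no RNA level was analysed here, so these cannot be told apart. In bulk tissue, fewer cells of a type and less RNA per cell cannot be told apart either.

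Depth was uneven, with 2750 exonic tags in ipsilateral replicate 5 and 27542 in contralateral replicate 1. The 3 libraries numbered 1 stood apart: peaks outside exons took 54.0% to 59.1% of the family's tags in them, against 26.1% to 49.1% in the other 10 libraries. They held 36.7% of all exonic tags. Among exonic marker genes of neurons, 6 of 9 were detected (Rbfox3, Tubb3 and Nefm were at 0), at a summed 159 to 322 tags per 10000 exonic tags in ipsilateral libraries, 283 to 338 in contralateral and 267 to 320 in sham libraries. Of the astrocyte markers 6 of 7 were detected (Gfap was at 0), at 207 to 335, 284 to 434 and 259 to 329 tags per 10000 in the ipsilateral, contralateral and sham libraries. Of the oligodendrocyte markers 4 of 8 were detected (Mog, Mag, Olig1 and Olig2 were at 0), at 10.9 to 46.1, 38.7 to 60.7 and 38.9 to 52.9 in the same order of groups. Markers of microglia and myeloid cells (1 of 7 detected), vascular cells (2 of 7) and blood (1 of 5) stayed at or below 6.28 tags per 10000 in every library. The part of the neuron and oligodendrocyte values in the results below was not tested.

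Sites under well covered 3'UTR peaks are shown first, because they name the miRNAs that could have brought AGO to these genes. Transcript sequence was available for 112 of the 129 exonic peaks, and 87 of these were 3'UTR peaks. Each was searched on the transcript strand for the site of 26 brain miRNAs, a match to seed positions 2 to 8, or to positions 2 to 7 followed by A; miR-124-3p and miR-23b-3p were not searched here. In the sequences below, read 5′ to 3′ from GENCODE transcripts on GRCm38 (mm10), capitals mark the site. The first 5 lines are from 3'UTR peaks with over 30 tags, and peaks of Sema7a, Epha7 and Plxna2, genes described further on, follow them. Not every peak of that coverage is shown: no sequence is printed for the clustered protocadherins, among them a 3'UTR peak named Pcdha8, with 36 tags, that holds miR-153-3p and miR-218-5p sites.
Pcdh8, miR-153-3p site: gtatatataaaTATGCAAgatgtgccttaa
Epha4, miR-17-5p site: attgaagaactGCACTTTttttactttgtc
Efna5, miR-29a-3p site: acagttcaccaTGGTGCTAcaacttttttt
Sema6d, miR-19b-3p site: caccttgcctcTTGCACAaatgtcaaaatg
Sema6d, miR-30a-5p site: tactatggagtTGTTTACAgtaagcatgac
Sema7a, miR-128-3p and miR-27b-3p site: acttaggctaaACTGTGAAaattcccgtgg
Epha7, miR-218-5p site: ggatggaaaagacacAGCACAAtaagaagt
Plxna2, miR-30a-5p, miR-137-3p and miR-26a-5p sites: cacTGTTTACAgtaAGCAATACTTGAAgag

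The Pcdh8 window lies at chr14:79767265-79767294 (minus strand) under a peak with 43 tags, and the Epha4 window at chr1:77373647-77373676 (minus strand) under a peak with 39 tags. The Efna5 window is at chr17:62606451-62606480 (minus strand, 34 tags). The Sema6d windows are at chr2:124665701-124665730 and chr2:124666037-124666066 (plus strand, 32 and 31 tags). The centres of these peaks lie 93 to 876 bases after the stop codon. The Sema7a window is at chr9:57962644-57962673 (plus strand, 17 tags), the Epha7 window at chr4:28966547-28966576 (plus strand, 24 tags) and the Plxna2 window at chr1:194813249-194813278 (plus strand, 24 tags). In the Plxna2 window 3 sites fell within 30 bases, and those of miR-137-3p and miR-26a-5p overlap.

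The 4 mature miRNAs with the most family 3'UTR peaks, and those of the Plxna2 window, are given here as in RefSeq (GRCm38.p6), with seed positions 2 to 8 in capitals.
miR-128-3p: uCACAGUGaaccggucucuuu
miR-27b-3p: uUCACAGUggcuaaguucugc
miR-26a-5p: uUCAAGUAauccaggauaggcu
miR-125b-5p: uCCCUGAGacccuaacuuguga
miR-30a-5p: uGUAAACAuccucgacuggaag
miR-137-3p: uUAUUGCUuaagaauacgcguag

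The seeds of miR-128-3p and miR-27b-3p share the run CACAGU offset by 1 base, so 1 stretch of a target can match both. Any of the 26 sites was present in 35 of 87 family 3'UTR peaks (40.2%), beside 2261 of 6867 (32.9%) of all 3'UTR peaks. The miR-128-3p site was in 6 family peaks (6.90%, against 2.53% of all 3'UTR peaks), the miR-26a-5p site in 5 (5.75% against 2.40%), and the miR-27b-3p and miR-125b-5p sites in 4 each (4.60%, against 2.59% and 1.21%). These are counts of peaks, and overlapping peaks can hold 1 site: the miR-128-3p site of Plxnc1 lies under 2 peaks, and so does the miR-125b-5p site of Nlgn2. Family 3'UTR peaks had a median GC content of 33.8%, against 37.5% over all 3'UTR peaks. These are matches to letters under a peak; which miRNA brought AGO there was not measured. Among AGO-bound miRNAs themselves, miR-26a-5p had 5118 tags over all libraries, miR-30a-5p had 878 and miR-137-3p had 523. The median of the 1705 miRNAs in the table was 172 tags, with an interquartile range of 117 to 252, so most miRNAs lie close together near a floor. The 96 tags of miR-128-3p and the 134 of miR-17-5p are below that median, and the 180 of miR-218-5p are close to it. These counts do not give the levels of those miRNAs. For miR-27b-3p no count was available.

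Taken over all families, the libraries of the 3 groups overlapped in their exonic AGO tags on these genes. The tags made up 133 ± 25.9 of every 10000 exonic tags in ipsilateral (SD, n = 5), 116 ± 21.8 in contralateral (SD, n = 4) and 136 ± 17.3 in sham cortex (SD, n = 4). The ipsilateral libraries ran from 115 to 178, the contralateral from 94.5 to 142 and the sham from 113 to 152, so all groups overlap. The high end of each group was the library numbered 1. Without Cdh18, a cadherin treated below, the values were 119 ± 7.48, 109 ± 13.6 and 117 ± 13.3 in ipsilateral, contralateral and sham cortex.

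**Figure D1:**
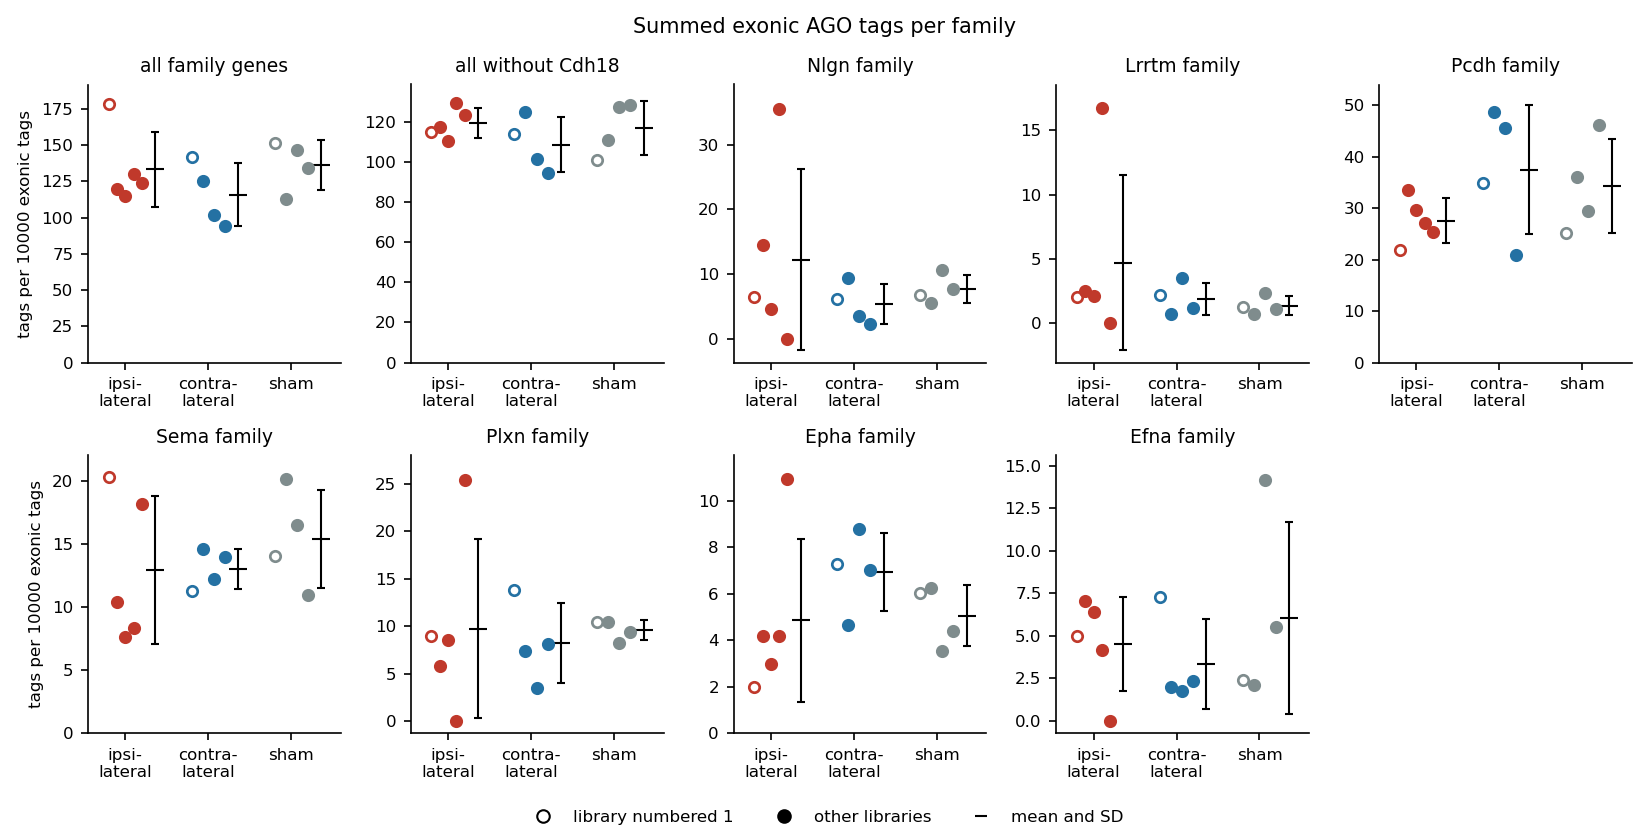
Summed exonic AGO tags per 10000 exonic tags (y axis) for all family genes, for all without Cdh18, and for 7 families, in ipsilateral, contralateral and sham libraries (x axis). Each point is a library, open where it is numbered 1, with the group mean and SD beside it; the groups overlap in every panel, and the Pcdh family averages 27.6 in ipsilateral, 37.5 in contralateral and 34.3 in sham cortex.

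In every family with exonic tags the libraries of the 3 groups overlapped. The protocadherins had 27.6 ± 4.43 in ipsilateral, 37.5 ± 12.5 in contralateral and 34.3 ± 9.11 tags per 10000 in sham cortex. Semaphorins had 12.99 ± 5.88, 13.05 ± 1.56 and 15.4 ± 3.88 tags per 10000 in ipsilateral, contralateral and sham cortex. Plexins had 9.74 ± 9.48, 8.20 ± 4.25 and 9.62 ± 1.04 in the same order, and the EphA receptors 4.84 ± 3.51, 6.92 ± 1.70 and 5.05 ± 1.303. No family was given a test, because its members were chosen with results of these data known.

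Of the 44 genes with exonic tags, 6 had enough tags to be tested among 436 genes, and Nrxn3, Nlgn3, Pcdh1, Cdh18 and Sema6d are described here. The other 38 genes were not tested there. The test was edgeR's quasi-likelihood test with Benjamini-Hochberg adjustment over the 436 genes. It called 0 of the 6 in ipsilateral against sham (0.229% of all genes tested were called), 0 of 6 in ipsilateral against contralateral (0.0% of all genes) and 0 of 6 in contralateral against sham (0.0% of all genes). At an unadjusted p under 0.05 the counts were 0, 0 and 0 of these 5 genes, against 9.4%, 12.2% and 1.61% of all genes. In the first comparison 5.5% of all genes had such a p and were higher and 3.9% lower, in the second 6.42% and 5.73%, and in the third 0.917% and 0.688%. DESeq2 also called 0 of the 6 in each comparison, but gave no adjusted p for Nlgn3, Sema6d and Nrxn3 in ipsilateral against contralateral. In each comparison 0 of the 6 genes had groups that did not overlap. Among all 436 genes all ipsilateral libraries were above all sham libraries for 0.917% and below them for 2.29%, and above all contralateral libraries for 0.459% and below them for 3.44%. Contralateral libraries were all above sham for 2.06% and all below for 0.229%. In a fit of all 3365 genes without a filter on low counts, 21 of the 44 family genes had a higher and 23 a lower fitted value in ipsilateral than in sham cortex, with a median log2 difference of -0.08, against -0.07 over all genes. For ipsilateral against contralateral the counts were 25 higher and 19 lower with a median of 0.05, against 0.03 over all genes. For contralateral against sham they were 18 higher and 26 lower with a median of -0.26, against -0.08 over all genes. No family gene was called in that fit, beside 0.0594%, 0.0594% and 0.0% of all genes in the 3 comparisons. At an unadjusted p under 0.05 there were 3, 5 and 2 of the 44, beside 9.78%, 9.99% and 6.39% of all genes. The comparisons share groups and are not independent of each other.

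**Figure D2:**
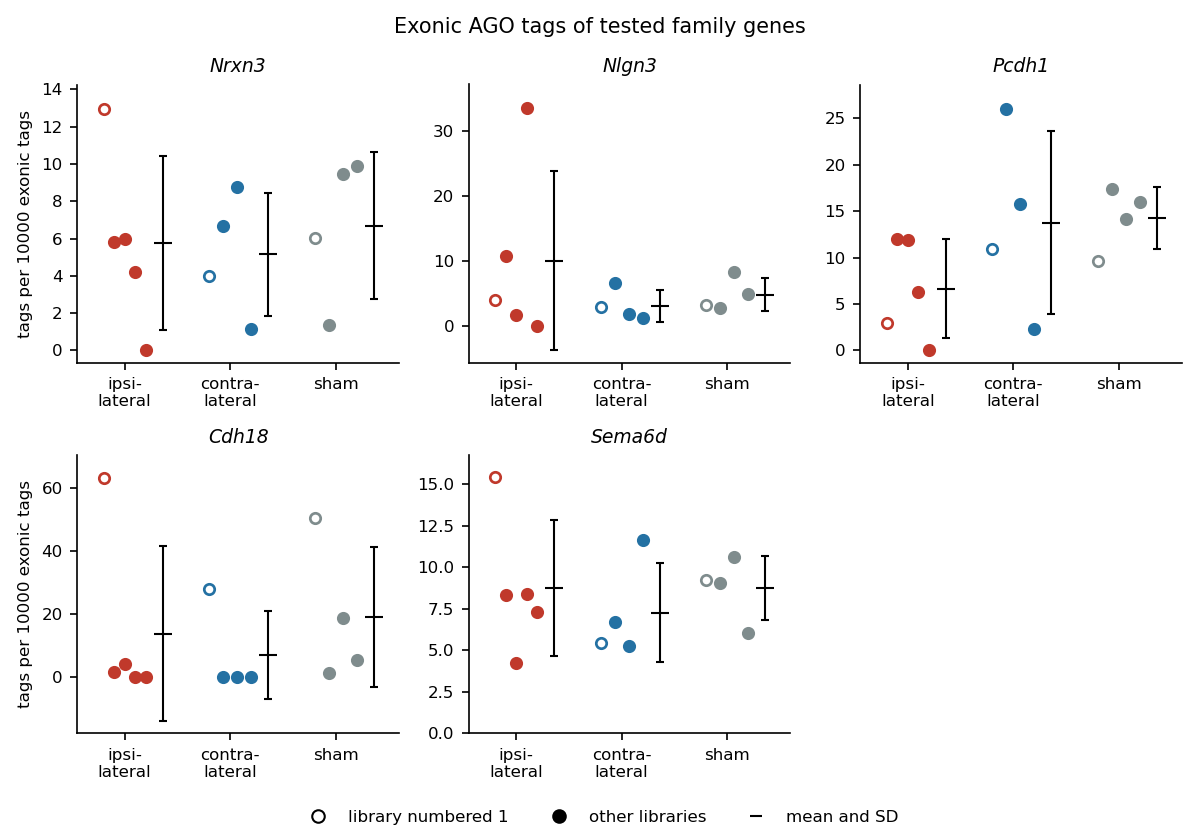
Exonic AGO tags per 10000 exonic tags (y axis) of Nrxn3, Nlgn3, Pcdh1, Cdh18 and Sema6d in ipsilateral, contralateral and sham libraries (x axis). Points are libraries, open where numbered 1, with the mean and SD of the group beside them; Pcdh1 lies between 0 and 12.04 in ipsilateral and between 9.63 and 17.4 in sham cortex, and Cdh18 is high in the open points.

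Nrxn3, a presynaptic neurexin, had 126 exonic tags in 10 peaks. Its share was 12.9, 5.81, 5.95, 4.19 and 0 tags per 10000 in ipsilateral, 3.99, 6.67, 8.77 and 1.17 in contralateral, and 6.02, 1.39, 9.44 and 9.90 in sham replicates. The highest value was ipsilateral replicate 1, a library numbered 1, and the groups overlap. The log2 difference was 0.12 (SE 0.57, adjusted p = 0.972 in edgeR) for ipsilateral against sham and 0.58 (SE 0.62, adjusted p = 0.702) against contralateral cortex. Without the libraries numbered 1 these were -0.48 and -0.11. Nrxn2 had 27 exonic tags in ipsilateral, 20 in contralateral and 16 in sham cortex, or mean shares of 2.77, 2.87 and 2.32 per 10000. It was not tested and was singled out after its values were seen. Group totals of untested genes, here and below, sum 5 ipsilateral, 4 contralateral and 4 sham libraries of unequal depth. Such totals alone do not give the direction of a difference.

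Nlgn3, a postsynaptic partner of neurexins, had 54 tags in ipsilateral, 20 in contralateral and 28 in sham cortex. Most of its 7 exonic peaks overlap another, so a tag may be counted more than once. All 7 lie under exons of 2 annotated genes, so the gene behind these tags is not certain. The share of Nlgn3 was 3.98, 10.8, 1.70, 33.5 and 0 tags per 10000 in ipsilateral, 2.91, 6.67, 1.75 and 1.17 in contralateral, and 3.21, 2.78, 8.26 and 4.95 in sham replicates. Ipsilateral replicate 4 was high and replicate 5 had no tag, so the ipsilateral range encloses both other groups. The log2 difference was 1.32 (SE 0.77, adjusted p = 0.436 in edgeR) against contralateral and 0.92 (SE 0.73, adjusted p = 0.694) against sham cortex. With the day of surgery in the edgeR fit the difference was 0.18 (SE 0.67, adjusted p = 0.958) against sham and 1.09 (SE 0.64, adjusted p = 0.435) against contralateral cortex. Without any 1 of ipsilateral replicates 1 to 4, Nlgn3 no longer had enough tags to be tested. The same held without the libraries numbered 1, with overlapping peaks counted once, and in 3'UTR peaks alone.

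The other synaptic organizers had too few tags for the main fit. Nlgn2, the neuroligin of inhibitory synapses, had 22 tags in ipsilateral, 15 in contralateral and 20 in sham cortex. Lrrtm3, a leucine-rich partner of neurexins, had 16 tags in ipsilateral, 8 in contralateral and 2 in sham cortex, but 8 of the 16 were in ipsilateral replicate 4, the library that was also high for Nlgn3. All exonic tags of Lrrtm3 lie in 2 overlapping 5'UTR peaks, with 4 tags each in that library, so a tag may be counted in both. In the fit without a filter its log2 difference from sham was 2.69 (SE 0.98, unadjusted p = 0.00600, adjusted p = 0.312 in edgeR), and 9.78% of all genes had an unadjusted p under 0.05 in that fit. Lrrtm4 had 6 tags in ipsilateral, 1 in contralateral and 2 in sham cortex.

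Among the protocadherins, Pcdh1 is a nonclustered adhesion protein. Its 236 exonic tags were in 4 peaks that the authors labelled CDS. On the GENCODE transcript used here, the centres of 3 of them, with 136, 39 and 31 tags, lie 177 to 363 bases after the stop codon. Its share was 2.98, 12.04, 11.9, 6.28 and 0 tags per 10000 in ipsilateral, 10.9, 26.0, 15.8 and 2.33 in contralateral, and 9.63, 17.4, 14.2 and 16.0 in sham replicates. Ipsilateral libraries were at the low end, yet replicates 2 and 3 lie within the sham range, so the groups overlap. The ipsilateral library was below its same-day sham library on 4 of 4 days, and below its same-day contralateral library on 4 of 4 days. Every pair was lower in 12.8% and 12.4% of all tested genes, and higher in 8.94% and 6.88%. Ipsilateral replicate 5 had no Pcdh1 tag, and an observed 0 allows about 3 tags, or 10.9 per 10000 there. That is below the 16.0 of its sham library but above the 2.33 of its contralateral library. The log2 difference was -0.83 (SE 0.50, adjusted p = 0.564 in edgeR) against sham and -0.79 (SE 0.51, adjusted p = 0.474) against contralateral cortex. An exact permutation test gave p = 0.0556 against sham and p = 0.222 against contralateral cortex, two-sided; the smallest p that 5 against 4 libraries can give is 0.00794. With the day of surgery in the edgeR fit the difference from sham was -1.10 (SE 0.41, unadjusted p = 0.0147, adjusted p = 0.318). Against contralateral cortex it was -0.997 (SE 0.432, unadjusted p = 0.0309, adjusted p = 0.331). At an adjusted p under 0.05, 1.15% and 0.917% of all genes were called in these comparisons. The share of all genes with an unadjusted p under 0.05 in that fit was not counted, so how rare such unadjusted values are was not tested.

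Pcdh7, also nonclustered, had 29 tags in ipsilateral, 28 in contralateral and 19 in sham cortex and was not tested in the main fit. Mean shares of Pcdh7 were 4.76, 5.61 and 3.28 per 10000 in the same order. Pcdh8, named for the miR-153-3p site shown above and not for its values, had 28, 24 and 16 tags in the same order. Pcdh9 was singled out after its values were seen: it had 2.49, 2.49, 1.70, 0 and 0 tags per 10000 in ipsilateral, 4.36, 4.00, 10.5 and 4.67 in contralateral, and 1.20, 3.48, 2.36 and 4.95 in sham replicates. Every ipsilateral library was below every contralateral one, as in 3.44% of the genes tested in the filtered fit, and the ipsilateral and sham libraries overlap. Ipsilateral replicates 4 and 5, both at 0, had only 4776 and 2750 exonic tags. An observed 0 allows about 3 tags, which would be 6.28 and 10.9 per 10000 in these libraries. Both lie above the lowest contralateral value of 4.00, so the separation is not certain. With 62 exonic tags it was not tested in the main fit. In the fit without a filter the log2 difference from contralateral cortex was -1.34 (SE 0.63, unadjusted p = 0.0326, adjusted p = 0.408 in edgeR). There 9.99% of all genes had an unadjusted p under 0.05. When all peaks of a gene were summed, Pcdh9 had -1.05 (SE 0.35, unadjusted p = 0.0105, adjusted p = 0.356 in edgeR) against contralateral cortex. In that fit 9.34% of genes had an unadjusted p under 0.05. Against sham cortex the all-peak value was -0.59 (SE 0.35, adjusted p = 0.730). The clustered protocadherins share constant exons, and 8 exonic peaks with 6 gene names lie under exons of at least 2 protocadherin genes, so the gene behind those tags is uncertain. Over all families, 123 of the 129 exonic peaks lie at least partly in an annotated exon of the named gene. The rest are named for clustered protocadherins or Efna5.

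The cadherin Cdh18 had 372 exonic tags, and 330 of them (88.7%) were in the 3 libraries numbered 1. Its 2 peaks overlap and have 185 and 187 tags, with counts that differ by at most 1 tag in any library, so nearly every tag may be counted in both, here and in the sums that include Cdh18. Its share was 63.1, 1.66, 4.25, 0 and 0 tags per 10000 in ipsilateral, 28.0, 0, 0 and 0 in contralateral, and 50.5, 1.39, 18.9 and 5.50 in sham replicates. The library numbered 1 was the highest of each group. Over all 436 tested genes the median share of tags in those 3 libraries was 33.0%, and Cdh18 ranked 2 by that share. The peaks, labelled CDS, lie at chr15:23474378-23474457 and chr15:23474413-23474492; 41 and 6 of their 80 bases are in an annotated Cdh18 exon. The log2 difference was -0.16 (SE 1.16, adjusted p = 0.979 in edgeR) for ipsilateral against sham, 0.96 (SE 1.23, adjusted p = 0.768) for ipsilateral against contralateral and -1.12 (SE 1.26, adjusted p = 0.994) for contralateral against sham cortex. With overlapping peaks counted once, an alternative chosen after seeing the data, these were -0.10, 0.91 and -1.005. With the day of surgery in the edgeR fit they were -0.51 (SE 0.46, adjusted p = 0.678), 1.15 (SE 0.52, unadjusted p = 0.0382, adjusted p = 0.333) and -1.66 (SE 0.54, unadjusted p = 0.00601, adjusted p = 0.655). The main edgeR fit gave unadjusted p = 0.446 and 0.385 for the last of these comparisons. The smaller values rest on tags that may be counted in both peaks and on contralateral counts of 77, 0, 0 and 0. How many of all genes had an unadjusted p under 0.05 with the day in the fit was not counted. The contralateral library was below its same-day sham library on 3 of 3 days, as in 11.9% of all tested genes. The ipsilateral library was above its same-day sham library on 2 of 4 days. Without the libraries numbered 1 Cdh18 had too few tags to be tested. Cdh2, the classical N-cadherin of neural tissue, had 17 tags in ipsilateral, 18 in contralateral and 16 in sham cortex, and 56.9% of its tags were in the libraries numbered 1. Mean shares of Cdh2 were 1.89, 1.94 and 2.13 per 10000 in the same order.

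**Figure D3:**
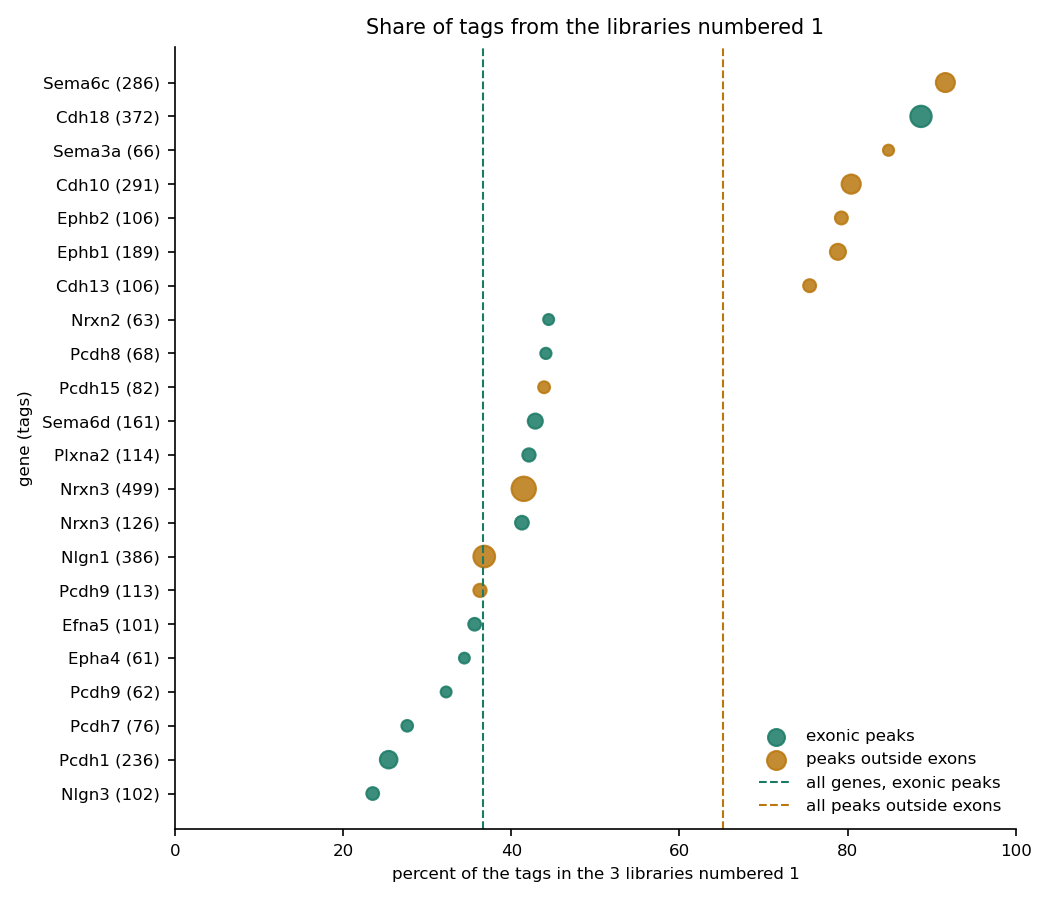
Percent of a gene's tags that lie in the 3 libraries numbered 1 (x axis) for the family genes described here with at least 60 exonic tags or at least 60 tags outside exons (y axis, tags in parentheses, point size by tags). Dashed lines mark the share over all genes, 36.7% for exonic and 65.2% for other tags; Cdh18 stands with Sema6c, Sema3a, Cdh10, Ephb1, Ephb2 and Cdh13 above 75%, apart from all other genes shown.

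Among guidance ligands, Sema6d, a transmembrane semaphorin that binds plexin A receptors, had 161 exonic tags in 7 peaks, all in the 3'UTR. Its share was 15.4, 8.30, 4.25, 8.38 and 7.27 tags per 10000 in ipsilateral, 5.45, 6.67, 5.26 and 11.7 in contralateral, and 9.23, 9.04, 10.6 and 6.05 in sham replicates. The groups overlap throughout. The log2 difference was 0.08 (SE 0.41, adjusted p = 0.972 in edgeR) against sham and 0.41 (SE 0.43, adjusted p = 0.691) against contralateral cortex, and without the libraries numbered 1 these were -0.39 and -0.27. Sema7a, a membrane-anchored semaphorin, had 1, 3, 3, 0 and 1 tags in ipsilateral, 11, 5, 3 and 1 in contralateral, and 4, 7, 5 and 5 in sham replicates. Its ipsilateral counts were no higher than 3, and in shares of exonic tags the groups overlap. In the fit without a filter its log2 difference was -1.58 (SE 0.72, unadjusted p = 0.0284, adjusted p = 0.419) against sham and -1.56 (SE 0.73, unadjusted p = 0.0323, adjusted p = 0.405 in edgeR) against contralateral cortex. Efna5, the 1 ephrin with a peak, had 44 tags in ipsilateral, 26 in contralateral and 31 in sham cortex. Mean shares of Efna5 were 4.52, 3.34 and 6.04 per 10000 in the same order, so by share ipsilateral was below sham cortex. All tags of Efna5 were in peaks with a 3'UTR label. One of these peaks, with 11 tags, was labelled both 3'UTR and intron and has no base in an annotated Efna5 exon. Its peaks with 31 and 34 tags overlap, so a tag may be counted in both.

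Among the receptors, Plxna2, a semaphorin receptor, had 35 tags in ipsilateral, 41 in contralateral and 38 in sham cortex; it was the untested family gene with the most exonic tags (114). Plxnc1, the receptor of Sema7a, had 9, 3 and 9 tags in the same order. Epha4, a receptor for both classes of ephrin, had 20, 20 and 21 tags and at least 1 in every library. Epha7 had 2 tags in ipsilateral, both in replicate 2, 10 in contralateral (8, 1, 0 and 1) and 12 in sham cortex (5, 3, 0 and 4). All its exonic tags were in the single peak with the miR-218-5p site. In the fit without a filter its log2 difference was -2.41 (SE 1.00, unadjusted p = 0.0163, adjusted p = 0.364 in edgeR) against sham and -2.27 (SE 1.03, unadjusted p = 0.0281, adjusted p = 0.404) against contralateral cortex. The EphB receptors Ephb1 and Ephb2 had tags outside exons only.

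Outside exons the family genes differed in which libraries held their tags. In 6 genes most tags came from the libraries numbered 1: Sema6c (286 tags in 1 peak, 91.6% in those libraries), Sema3a (66 tags, 84.8%), Cdh10 (291 tags in 1 peak, 80.4%), Ephb2 (106 tags, 79.2%), Ephb1 (189 tags, 78.8%) and Cdh13 (106 tags, 75.5%). Over all peaks outside exons that share was 65.2%. Nrxn3 (499 tags in 61 peaks) and Nlgn1 (386 tags in 23 peaks) had 41.5% and 36.8% of theirs there, as well as Pcdh15 (82 tags, 43.9%) and Pcdh9 (113 tags, 36.3%). These 10 genes are those with at least 60 tags outside exons.

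Nrxn3 outside exons had 6.07, 10.6, 8.59, 8.45 and 13.2 tags per 10000 peak tags in ipsilateral, 13.7, 19.8, 18.9 and 38.1 in contralateral, and 10.98, 16.2, 10.0 and 18.1 in sham replicates. Every ipsilateral library was below every contralateral one, which held for 1.4% of the 357 genes with at least 60 such tags. The share was 2.24% for ipsilateral below sham, and 0.56% and 0.28% for contralateral above and below sham. The Nrxn3 values are shares of all peak tags, and the part of those outside exons differed between libraries. It was 27.2% in ipsilateral replicate 5 (Nrxn3 at 13.2) and 58.1% in contralateral replicate 1 (13.7). Relative to tags outside exons alone these libraries would be in reverse order, so the separation depends on the denominator. Some peaks of Nrxn3 and Nlgn1 outside exons overlap, so a tag may be counted more than once. For Nrxn3 the ipsilateral and sham libraries overlap, but each ipsilateral library was below its same-day sham library on 4 of 4 days, and below its same-day contralateral library on 4 of 4 days. Every such pair was lower in 14.3% of the 357 genes against sham and in 8.12% against contralateral cortex. In replicate 3, 34.8% of the ipsilateral and 52.7% of the sham tags lay outside exons. Relative to those tags the Nrxn3 pair of that day would be reversed, and the other pairs would keep their order. Nlgn1, a neuroligin of excitatory synapses with no exonic peak, had 2.80, 9.48, 13.6, 1.41 and 7.94 tags per 10000 in ipsilateral, 9.12, 19.0, 5.03 and 12.7 in contralateral, and 9.01, 12.3, 14.5 and 13.9 in sham replicates. The groups of Nlgn1 overlap, and its ipsilateral library was likewise below the same-day library on 4 of 4 days against sham and on 4 of 4 against contralateral cortex. The replicate 3 pair of Nlgn1 against sham, 13.6 and 14.5, would also be reversed relative to tags outside exons alone. Against sham, Cdh10 and Sema3a were also lower on 4 of 4 days, but their groups overlap and some pairs were nearly equal. Sema3a had 3.11, 0.862, 0.277 and 0 in ipsilateral replicates 1, 2, 3 and 5, against 3.24, 0.877, 1.12 and 0.752 in sham. Cdh10 had 11.4, 1.72, 4.43 and 0 in the same ipsilateral replicates, against 11.7, 4.38, 7.26 and 0.752. When all peaks of a gene were summed, the log2 difference of Nrxn3 was -0.89 (SE 0.27, unadjusted p = 0.00572, adjusted p = 0.291 in edgeR) for ipsilateral against contralateral and -0.55 (SE 0.27, adjusted p = 0.708) against sham cortex. That of Nlgn1 was -0.70 (SE 0.46, adjusted p = 0.612) against contralateral and -0.96 (SE 0.46, adjusted p = 0.681) against sham cortex. In these fits 9.34% of 610 genes had an unadjusted p under 0.05 against contralateral and 6.72% against sham, and 1.48% did in contralateral against sham. No gene was called (0.0%). The exonic and all-peak values of Nrxn3 had opposite signs, and neither passed the threshold. These genes were singled out after their values were seen.

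**Figure D4:**
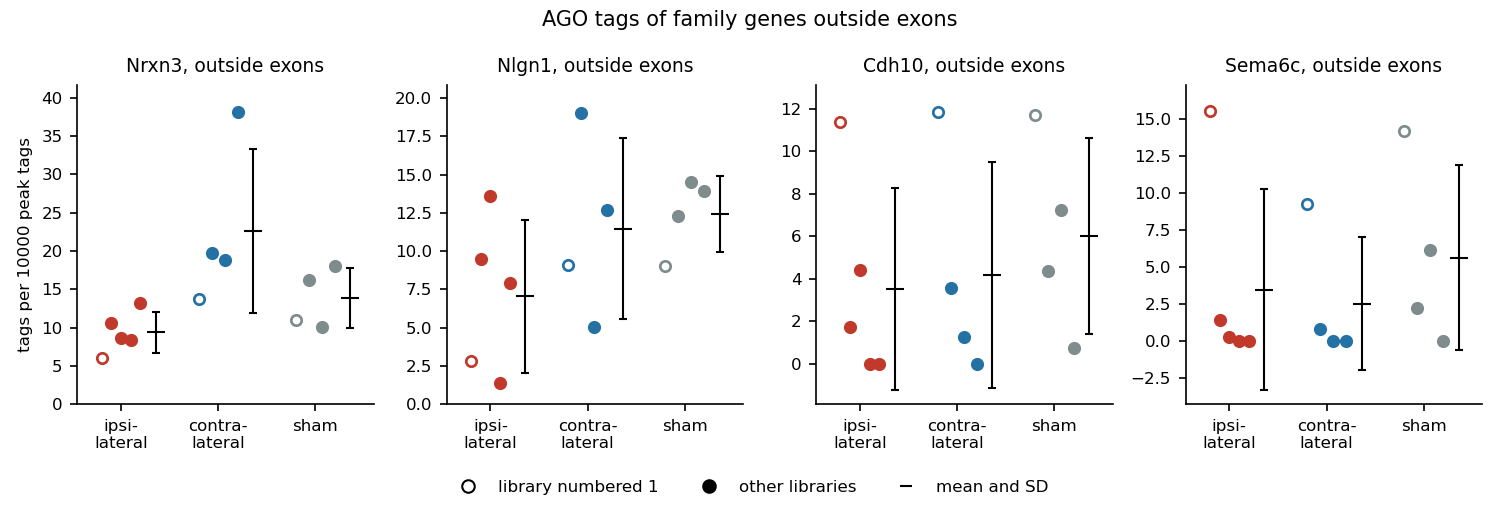
AGO tags outside exons per 10000 peak tags (y axis) of Nrxn3, Nlgn1, Cdh10 and Sema6c in ipsilateral, contralateral and sham libraries (x axis), 1 point a library, open where numbered 1, with the group mean and SD. Nrxn3 lies between 6.07 and 13.2 in ipsilateral and between 13.7 and 38.1 in contralateral cortex, while Cdh10 and Sema6c are highest in the open points of every group.

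Tested singly, 6 peaks of family genes passed the filter among 238: the 2 of Cdh18, a Pcdh1 peak labelled CDS, and intronic peaks of Cdh10, Sema6c and Ephb1. None was called by edgeR in any comparison (0.0% of all peaks were called in each), and 0 had an unadjusted p under 0.05, against 2.1%, 2.1% and 0.42% of all peaks in ipsilateral against sham, ipsilateral against contralateral and contralateral against sham. DESeq2 called 0 of them.

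Other genes of the same pathways were read from lists of 108 genes outside the families: netrins, slits and their receptors, immunoglobulin adhesion genes, other synaptic organizers, teneurins and atypical cadherins, and catenins with other cytoplasmic effectors. Exonic tags were found for 61 of them and 8 were tested: Nrcam, Cntn1, Cadm1, Ptprd, Celsr2, Ctnnb1, Ctnnd2 and Dpysl2. None was called in either direction in any comparison, and 0 had an unadjusted p under 0.05 in edgeR. By fitted value 3 were higher and 5 lower in ipsilateral than in sham cortex, and likewise 3 and 5 against contralateral cortex. The largest of these differences against contralateral cortex were -0.57 for Ctnnd2 (SE 0.49, adjusted p = 0.626), a delta catenin that binds cadherins, and 0.46 for Cntn1 (SE 0.31, adjusted p = 0.506), an axonal adhesion protein. Contralateral against sham, Cadm1, a synaptic adhesion protein, had the smallest unadjusted p, with a log2 difference of 0.62 (SE 0.32, unadjusted p = 0.0679, adjusted p = 0.994).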

How the data were processed

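AGO CLIP tags were counted by the authors per AGO peak and per mature miRNA in 13 libraries, and the deposited tables hold raw counts, not normalized. Tags of 50-base single-end reads were aligned to mm10 with Novoalign, per the submitters' processing notes; the peak caller and the collapsing of duplicates were not stated there. The peaks are 80 bases, and the lowest peak total was 3; 1 peak without a position (44 tags) was left out. The table does not state its coordinate system; it was read as BED and written 1-based. Counts of exonic peaks were summed per gene; 35 of the 129 exonic family peaks (27.1%) overlap another peak of the same gene, so a tag may count more than once. edgeR 4.0.16 (R 4.3.3) was run with TMM factors, filterByExpr and all 13 libraries in 1 fit, with group as the only term (common biological coefficient of variation 0.366 for genes and 0.907 for peaks); p-values were adjusted by Benjamini-Hochberg over all genes or peaks tested, with a threshold of 0.05. The SE is the log2 difference divided by the root of edgeR's F. The exact permutation test compared shares of exonic tags. The code was tested on simulated data. DESeq2 1.42.0 was the alternative test. Shares over counts cover counting error only, and reads without molecular identifiers need not be independent molecules.

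The genes named were every member past the threshold (none), the 2 with the most exonic tags per family, and, per comparison, the 2 tested members with the smallest p in each direction; others are said to be singled out. One result of this rule is not reported here. The members and lists were chosen with earlier results of these data known. Same-numbered libraries come from 1 day of surgery, per the series' design text, and their deviations from the group means correlated at 0.529 to 0.546 for number 1, 0.162 to 0.323 for number 2, -0.05 for number 3, 0.106 for number 4 and 0.24 to 0.37 for number 5. With the replicate number as a block, 5 genes were called in ipsilateral against sham (1 without it) and 4 in ipsilateral against contralateral (0 without it), none of them a family gene.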

Additional observations from a re-analysis of the deposited data

Results flagged for a closer look

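In 81 groups of 4 or 5 libraries examined by Dixon's criterion, over all family genes together, the families and the named genes, 16 values stood apart from the rest of their group; chance flags about 1 group in 20, and many of these values rest on a few tags and on overlapping sums. Values are tags per 10000 exonic tags.

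The libraries numbered 1 gave the values with the most tags behind them. Ipsilateral replicate 1 had 178.5 for all family genes together, while the other ipsilateral libraries had 114.8 to 129.8. It had 69.11 for the Cdh family and 63.15 for Cdh18 alone. Contralateral replicate 1 had 34.49 for the Cdh family and 27.96 for Cdh18, while the other contralateral libraries had no Cdh18 tag. The same library had 7.262 for the Efna family, which is Efna5 alone (20 tags), against 1.754 to 2.333 in the others, and 1.089 for Plxnc1 (3 tags).

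Ipsilateral replicate 4 had 16.75 for the Lrrtm family and the same 16.75 for Lrrtm3, on 8 tags. Ipsilateral replicate 5 had 10.91 for the Epha family on 3 tags. Epha7 stood at 0.8304 in ipsilateral replicate 2 (2 tags) and at 0 in sham replicate 3, while the other sham libraries had 2.006 to 2.199. Epha4 stood at 2.199 in sham replicate 5, below the 3.477 to 3.61 of the other sham libraries. Lrrtm4 stood at 1.166 in contralateral replicate 5 (1 tag) and at 0.8023 in sham replicate 1 (2 tags).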

How the results depend on the processing

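No family gene or peak was called under any setting run. Counts of called genes were small and moved. For ipsilateral against sham, 1 gene was called; DESeq2 called 7, the fit without a filter 2, the replicate block 5, all peaks of a gene 0, the fit without the 3 libraries numbered 1 2, overlapping peaks counted once (added after seeing the data) 0, and leaving out 1 library 0 to 10 (10 without ipsilateral replicate 1). For ipsilateral against contralateral, 0 were called (53 at an unadjusted p under 0.05); DESeq2 called 6, no filter 2, the replicate block 4, without the libraries numbered 1 3, and leaving out 1 library 0 to 10 (10 again without ipsilateral replicate 1). For single peaks of that comparison 0 were called, DESeq2 called 1, and leaving out 1 library gave 0 to 1. The replicate block changed no other call.

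Signs turned for log2 differences that never passed the threshold, and the cause was not tested. Nrxn3 (0.12 against sham, 0.58 against contralateral, -0.46 contralateral against sham) was -0.55, -0.89 and 0.34 with all peaks of a gene, -0.48 and -0.11 in the ipsilateral comparisons without the libraries numbered 1, and -0.22 to 0.40 against sham with 1 library left out. Sema6d (0.08 against sham, 0.41 against contralateral) was -0.39 and -0.27 without the libraries numbered 1, -0.0062 against sham in 3'UTR peaks alone and -0.036 with overlapping peaks counted once; leaving out 1 library gave -0.45 to 0.35 and -0.11 to 0.69. Leaving out 1 library moved Cdh18 between -0.55 and 1.31 against sham, between 0.55 and 7.76 against contralateral (0.96 with all libraries) and between -7.89 and 0.34 for contralateral against sham; 7.76 and -7.89 are without contralateral replicate 1, the one contralateral library with Cdh18 tags, so they are no measure of size. It moved Pcdh1 between -1.07 and -0.53 against sham, between -1.12 and -0.27 against contralateral (-0.27 without contralateral replicate 2), and between -0.53 and 0.28 for contralateral against sham. The log2 ratio of the summed share of all family genes lay between -0.16 and 0.02 against sham (-0.03 with all libraries), between 0.07 and 0.31 against contralateral (0.20) and between -0.35 and -0.15 for contralateral against sham (-0.23). Low tag counts, 6 of 44 genes tested, limit all of this.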
